A study of Mus musculus with 23 samples.

Results

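The mRNA levels of 10 Notch pathway genes were followed in C2C12 cells, a mouse myoblast line that divides in serum-rich medium and fuses into myotubes once serum is lowered. The genes were taken by symbol from the deposited tables as 10 of 32793 genes, namely the receptors Notch1, Notch2 and Notch3, the ligands Jag1, Jag2 and Dll1, and the repressors Hes1, Hes6, Hey1 and Heyl. Poly(A) RNA was sequenced from 23 libraries in 8 groups. Control C2C12 cells (WT) and Runx1KO C2C12 cells (labelled KO) were each sampled on day 0, while growing in 20% fetal bovine serum, and on days 1, 3 and 6 of culture in 2% horse serum, which triggers differentiation. Day 6 follows the sample titles, whereas the series text gives 5 days. Each group held 3 libraries except WT day 0, of which 2 were analysed here. The labels name no other allele or agent for any group. The labels do not say how the Runx1 gene was altered, whether the line is 1 clone, or whether replicates were separate cultures, so p-values measure the spread between these libraries.

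In Notch signalling a ligand on one cell binds a receptor on its neighbour, proteases then free the receptor's intracellular part, and that part enters the nucleus and joins the DNA-binding protein Rbpj to switch on genes. Hes1, Hey1 and Heyl encode basic helix-loop-helix repressors that are classical targets of this step, and Hes6 encodes a relative that can oppose Hes1. In skeletal muscle, Notch signalling is known for holding satellite cells and myoblasts undifferentiated.

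Total estimated counts were 22197606 to 23684077 per library, so depth differed little. Runx1 mRNA stood higher in the labelled KO than in the WT libraries on every day, from 0.35 (SE 0.08) on the log2 scale on day 1 to 1.02 (SE 0.08) on day 6 (adjusted p = 0.00151 and 6.11e-10, edgeR quasi-likelihood test, Benjamini-Hochberg). Total Runx1 mRNA therefore does not check the genotype, and every direction below is that of the libraries as labelled. Replicate 2 of the labelled KO day 1 group stood apart from its replicates, with chi-square values of 61.3 and 61.1 per degree of freedom against 3.1 to 27.4 in all other pairs. All 5 myoblast markers were present in every group. CPM are counts scaled to library size, with TMM factors for single genes and without them for the marker sums. The myoblast marker sum was higher in labelled KO than in WT on day 0 (2502 to 2566 against 1853 to 1883). It was also higher on day 3 (3733 to 3940 against 2911 to 3001) and day 6 (4221 to 4626 against 2693 to 3099). On day 1 the ranges overlapped (2528 to 3100 against 2728 to 2830). Des held most of this sum, while Myf5 had the lower mean in labelled KO on all 4 days, at 13.03 ± 0.573 CPM (SD, n = 3) against 35.1 ± 0.00501 CPM (n = 2) on day 0. The 5 endothelial markers summed to at most 1.30 CPM. The summed level of the 7 myotube markers was higher in every labelled KO library than in any WT library of the same day. It was 2.17 to 2.58 against 1.70 to 1.80 CPM on day 0, 113 to 156.5 against 34.9 to 68.5 CPM on day 1, 3152 to 5729 against 1913 to 2113 CPM on day 3, and 8688 to 10510 against 1561 to 1884 CPM on day 6. On days 3 and 6 each of the 7 markers had the higher mean in labelled KO. On days 0 and 1 the higher sum came mainly from Acta1, Tnnt3 and Myog, whereas the mean of Mymk was lower in labelled KO (0.891 against 1.12 CPM and 9.75 against 9.89 CPM), that of Mymx was 0.0156 against 0.0231 CPM and 0.975 against 0.952 CPM, and Ckm was at 0 in labelled KO on day 0. The 5 haematopoietic markers summed to 10.1 to 11.9 CPM in labelled KO and 4.64 to 8.26 CPM in WT on day 6, and to at most 3.30 CPM on the other days. On day 6 Cd68 was at 10.7 ± 1.09 CPM in labelled KO and 3.32 ± 1.26 CPM in WT (SD, n = 3 each), whereas Csf1r ran the other way, at 0.567 ± 0.0812 against 2.34 ± 0.628 CPM. In labelled KO on that day Ptprc, Lyz2 and Cd3e were at 0 counts. The part of these marker differences in the results was not tested.

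All 10 members passed the filter on low counts, although Dll1 had only 4, 5 and 6 counts in the labelled KO libraries of day 0. On TPM, the length-corrected scale on which genes can be compared, the receptors were led by Notch2 and Notch3 (except in labelled KO on day 0, where Notch1 at 12.9 TPM stood beside Notch3 at 11.5 TPM), the ligands by Jag2 and the repressors by Hes1 and Hes6. In WT the summed TPM of the 3 receptors was 56.5 ± 8.64 (SD, n = 2) on day 0 and 131 ± 11 (SD, n = 3) on day 1. In labelled KO it was 45.2 ± 5.91 and 87.8 ± 7.71 (SD, n = 3 each). Between genotypes, Hey1 and Heyl were higher in labelled KO on all 4 days, while Notch3 was lower on all 4 days and Dll1 changed sides with time.

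**Figure D1:**
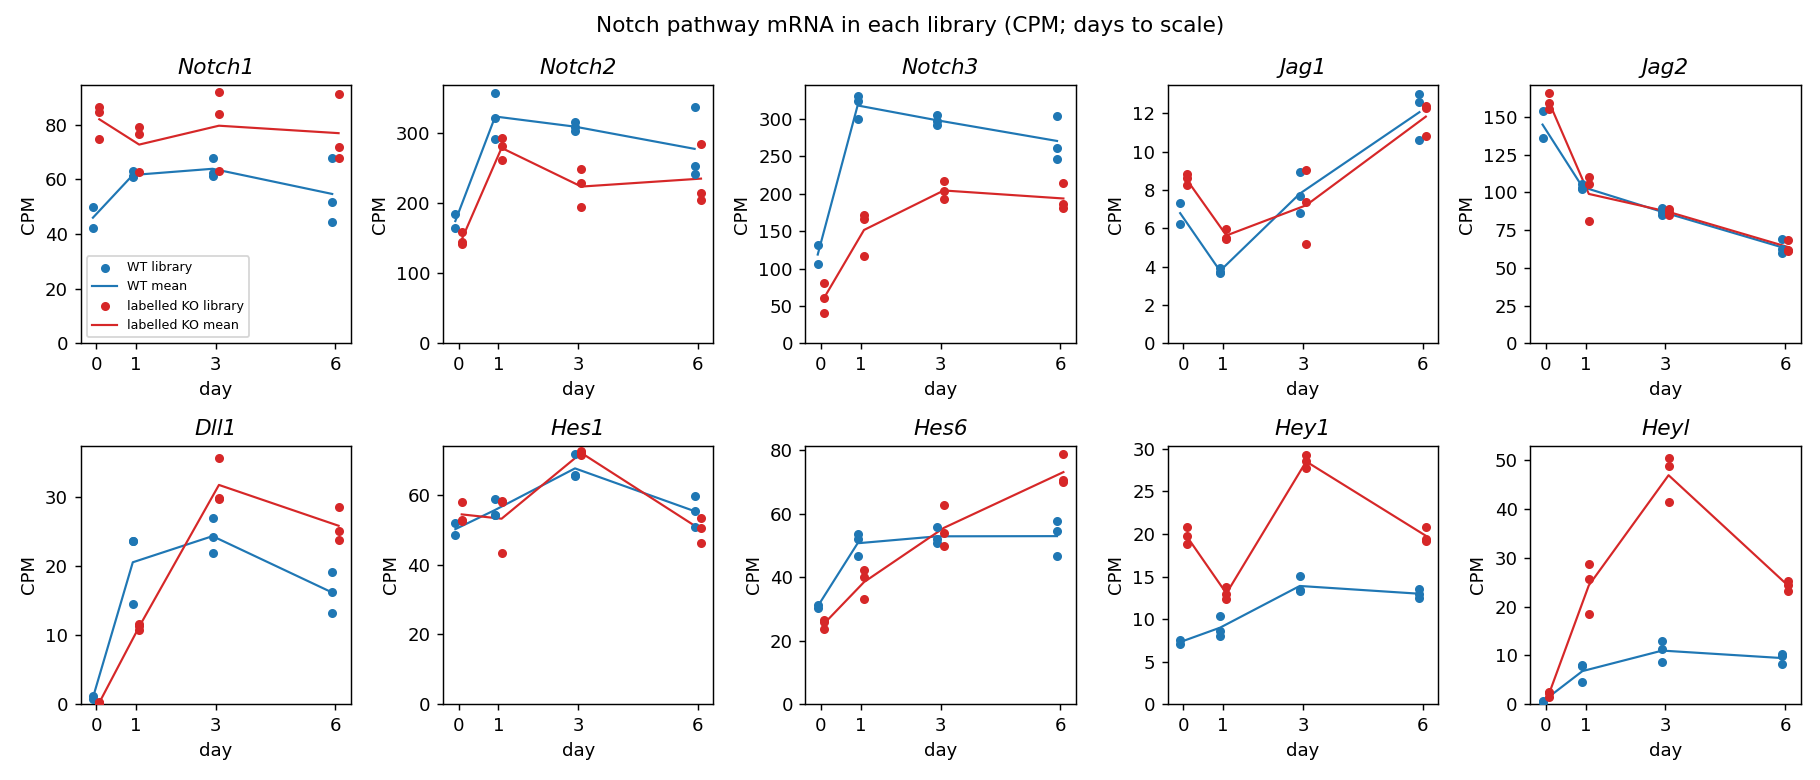
Level of each of the 10 genes in every library (CPM, linear axis) against day (days 0, 1, 3 and 6), WT and libraries labelled KO in separate colours, with lines through the group means. Hey1 and Heyl lie higher in labelled KO on each day, Notch3 lower, and the Dll1 lines cross between days 1 and 3.

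Across all 14187 genes tested, 17.5% differed between genotypes on day 0 (7.36% higher and 10.1% lower in labelled KO), 42.2% on day 1 (22.9% and 19.2%), 43.2% on day 3 (24% and 19.2%) and 42.9% on day 6 (22% and 20.8%), at an adjusted p under 0.05. Of the 10 members, 5 differed on day 0, of which 3 were higher. On day 1 it was 6, with 3 in each direction, on day 3 it was 5, of which 3 were higher, and on day 6 it was 6, of which 5 were higher. The members' share therefore lay above the background on day 0 and nearer to it on days 1, 3 and 6. The members were chosen with earlier results of these data known, so this comparison is a description. The background count of day 0, 2479 genes, was 1265 without WT day 0 replicate 1 and 1499 without WT day 0 replicate 2. The median member difference was 0.13, -0.07, 0.08 and 0.23 on the log2 scale, against 0.00, 0.03, 0.04 and 0.00 over all genes. Non-overlapping CPM values were seen for 10, 6, 5 and 5 members on days 0, 1, 3 and 6, against 51.6%, 47.1%, 60.4% and 51.7% of all genes. The all-gene split depends on scaling: the share of called genes that were higher in labelled KO was 42.1% on day 0 but 29.5% with library size alone, and 54.4%, 55.5% and 51.4% on days 1, 3 and 6 but 43.3%, 34.3% and 34.9% on log2(TPM + 1).

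**Figure D2:**
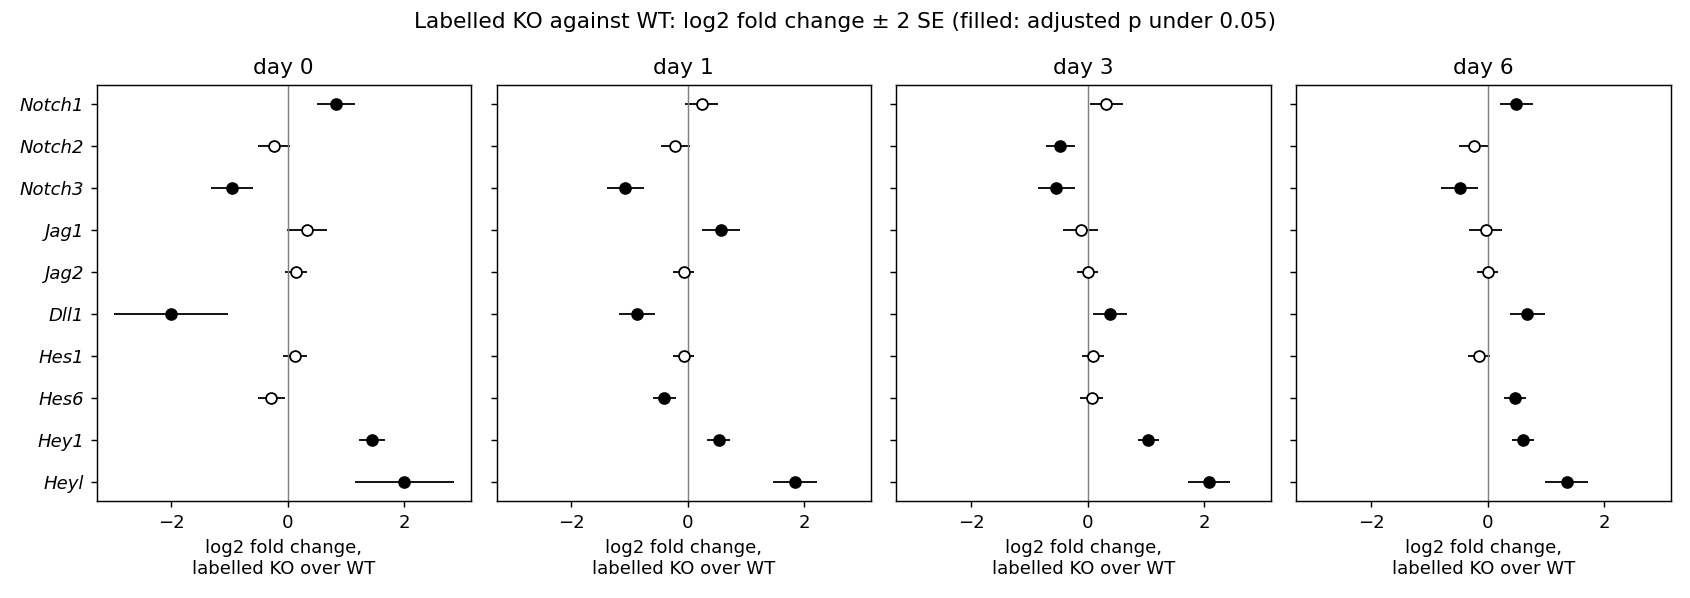
Difference of labelled KO from WT for each member on each day (log2 fold change, the 4 panels on 1 common horizontal axis), points with bars of 2 standard errors either side, filled where the adjusted p is under 0.05. Heyl and Hey1 stand to the right of 0 in each panel, Notch3 to the left, and Dll1 moves from -2.01 on day 0 to 0.68 on day 6.

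Among the receptors, Notch3 was lower in labelled KO on all 4 days. Notch3 encodes a receptor found in satellite cells and vascular smooth muscle, and spans chr17:32120820-32166896 of GRCm38 (mm10). On day 0 it was at 132 and 106 CPM in WT and at 81.3, 60.6 and 40.9 CPM in labelled KO. On day 1 WT held 324, 331 and 299 CPM and labelled KO 166, 117 and 171 CPM. Every labelled KO library was below every WT library on both days. Day 3 gave 305, 292 and 297 CPM in WT against 203, 217 and 193 CPM in labelled KO, and day 6 gave 246, 261 and 304 CPM against 214, 181 and 186 CPM. The groups were again separate. The differences were -0.96 (SE 0.18), -1.07 (SE 0.161), -0.54 (SE 0.16) and -0.48 (SE 0.16) on the log2 scale on days 0, 1, 3 and 6, with adjusted p = 0.000422, 1.34e-05, 0.00807 and 0.0177 (edgeR quasi-likelihood test, Benjamini-Hochberg). The day 6 call was lost without labelled KO replicate 2 or 3, or without WT replicate 3 (adjusted p = 0.0699, 0.0585 and 0.0543).

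Notch1 ran the other way. This receptor, at chr2:26457902-26503822, is the one most studied in satellite cell quiescence. It was at 49.8 and 42.2 CPM in WT on day 0 and at 86.4, 74.8 and 84.8 CPM in labelled KO, which was 1.78-fold higher (log2 fold change 0.83, SE 0.163, adjusted p = 0.000681, edgeR quasi-likelihood test, Benjamini-Hochberg). The day 0 groups were well separated. On day 6 WT held 51.8, 44.4 and 67.8 CPM and labelled KO 91.3, 71.8 and 67.7 CPM, so that the lowest labelled KO library sat level with the highest WT library. That difference of 0.49 (SE 0.142, adjusted p = 0.00713) was lost without labelled KO replicate 1 (0.32, adjusted p = 0.0877), without WT replicate 2 (0.36, adjusted p = 0.0569) and on log2(TPM + 1) (0.34, adjusted p = 0.113). On day 1 (WT 60.9 to 62.9 CPM, labelled KO 62.5 to 79.0 CPM) and day 3 (WT 61.3 to 67.9 CPM, labelled KO 63.0 to 92.1 CPM) the groups overlapped and did not pass the test, at 0.24 and 0.32. The day 3 value passed without labelled KO replicate 3 (0.46, adjusted p = 0.0137), without a filter on low counts (0.30, adjusted p = 0.0438) and in a fit on only the groups compared (0.28, adjusted p = 0.0464).

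Notch2, at chr3:98013538-98150367, passed the test on day 3 alone. Its day 3 levels were 308, 316 and 302 CPM in WT and 228, 248 and 194 CPM in labelled KO, a difference of -0.47 (SE 0.123, adjusted p = 0.00369, edgeR quasi-likelihood test, Benjamini-Hochberg). The groups did not overlap. On days 0, 1 and 6 the difference was -0.24, -0.21 and -0.24 and missed the threshold. The day 0 value passed in a fit on those 5 libraries (adjusted p = 0.0254), and the day 6 value was -0.43 (adjusted p = 0.00779) without labelled KO replicate 1.

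The make-up of the receptor pool differed accordingly. Notch1 took 13.3% of the summed TPM of the 3 receptors in WT on day 0 (SD 0.0162, n = 2) and 28.6% ± 3.34 (SD, n = 3) in labelled KO. From day 1 on it took 8.41 to 9.14% in WT and 14.4 to 15.1% in labelled KO, as group means. Notch3 took 41.2% in WT and 24.9% in labelled KO on day 0, and 51.8% and 44.8% on day 6. These shares are a description and were not tested.

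**Figure D3:**
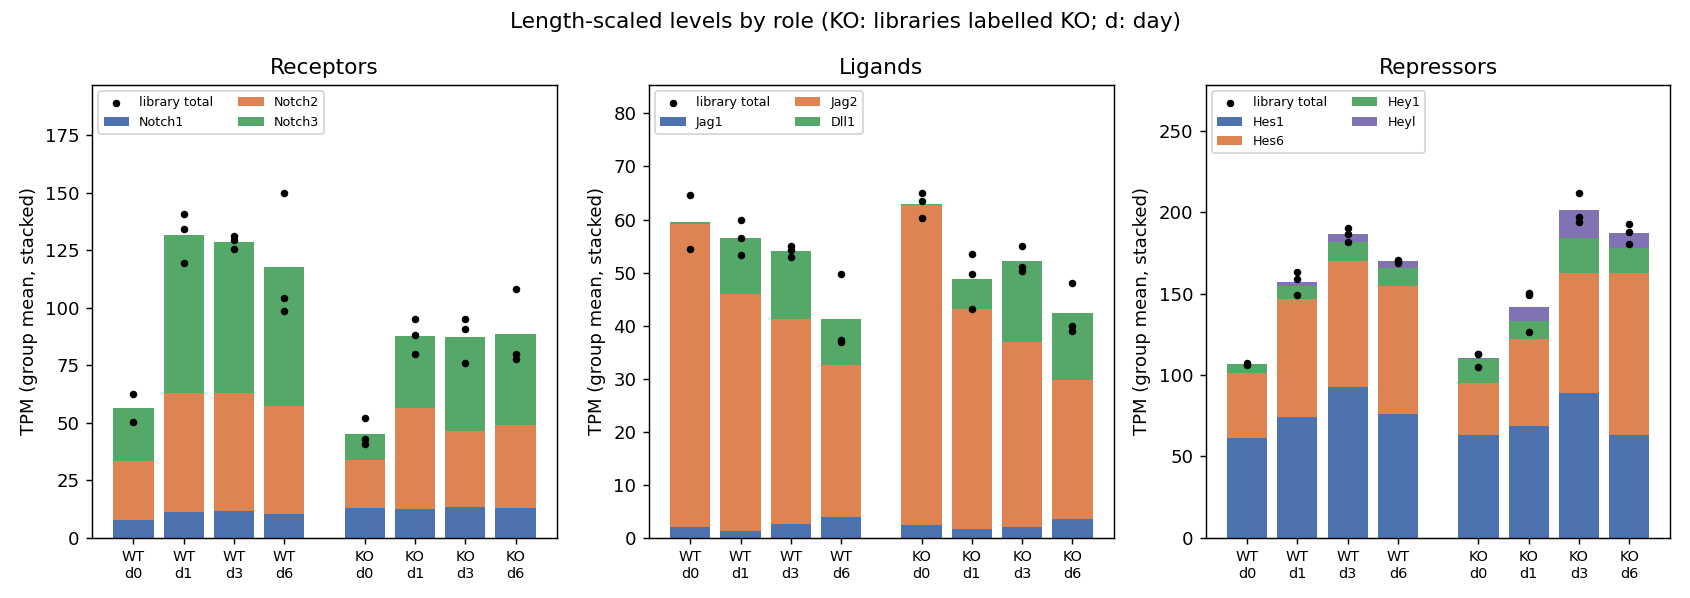
Mean TPM of the members in each of the 8 groups, stacked by role (receptors, ligands, repressors), on linear axes from 0, with a dot for the sum in each library. The receptor sum grows after day 0 in both genotypes, Dll1 takes a larger part of the ligand sum after day 0 than on day 0 in both, and Heyl is a thin layer among the repressors.

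Among the ligands, Dll1 changed most. It encodes a transmembrane ligand of the Delta family, needed in the embryo to keep muscle progenitors from differentiating early, and lies at chr17:15367354-15376932 on the minus strand. On day 0 it was close to absent, with 17 and 25 counts (0.748 and 1.16 CPM) in WT and 4, 5 and 6 counts (0.181, 0.233 and 0.278 CPM) in labelled KO. By day 1 it stood at 23.6, 14.5 and 23.6 CPM in WT and 11.6, 10.8 and 11.3 CPM in labelled KO. Labelled KO was the lower group on both days, without overlap. On day 3 WT held 27.0, 24.3 and 21.9 CPM and labelled KO 35.7, 29.9 and 29.7 CPM. On day 6 WT held 13.2, 16.2 and 19.1 CPM and labelled KO 28.6, 23.9 and 25.2 CPM. Labelled KO was then the higher group, again without overlap.

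Dll1 was thus 4.04-fold lower in labelled KO on day 0 (log2 fold change -2.01, SE 0.491, adjusted p = 0.00512), 1.83-fold lower on day 1 (-0.87, SE 0.156, adjusted p = 0.000102) and 1.60-fold higher on day 6 (0.68, SE 0.151, adjusted p = 0.000867, each an edgeR quasi-likelihood test, Benjamini-Hochberg). The day 0 fold rests on at most 25 counts in a library and was lost without WT replicate 2 (-1.67, adjusted p = 0.0938) and on log2(TPM + 1) (-0.39, adjusted p = 0.181). The day 3 difference of 0.38 (SE 0.147, adjusted p = 0.0388) was the least firm Dll1 call between genotypes. It was lost with RLE scaling, library size alone, DESeq2 and both TPM fits (0.22 to 0.35) and when any 1 of 8 libraries was left out. The change since day 0 was larger in labelled KO than in WT by 2.40 on day 3 (SE 0.512, adjusted p = 0.00279) and by 2.69 on day 6 (SE 0.512, adjusted p = 0.000726). Both differences share the low day 0 counts, and the day 3 value was lost without WT day 0 replicate 2 (2.06, adjusted p = 0.0624) and on log2(TPM + 1) (0.60, adjusted p = 0.124).

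Promoter windows of RefSeq, the 250 bases before an annotated start on GRCm38.p6, matched 7 of the 10 members, all but Hes1, Hey1 and Heyl, with 9 windows in all. The motifs below were searched on both strands: RBPJ (GTGGGAA, in 5.42% of 32851 windows of the same length), RUNX (TGTGGT, 14%), ETS (CCGGAA, 12%) and the palindromic E-box CAGCTG bound by myogenic factors (13%). The E-box lay in 4 of the 9 member windows, of Jag1, Dll1 and Hes6, and the other motifs in none of these windows. The E-box was added to the search after the windows had been seen, and a match is a description of letters, not a bound site. The upstream window of Dll1 is shown because this gene had the largest change with time, with the E-box, 132 to 127 bases before the start, in capitals; it is read on the minus strand from chr17:15376933-15377182 and overlaps an exon of the transcript A930024N18Rik.
Dll1: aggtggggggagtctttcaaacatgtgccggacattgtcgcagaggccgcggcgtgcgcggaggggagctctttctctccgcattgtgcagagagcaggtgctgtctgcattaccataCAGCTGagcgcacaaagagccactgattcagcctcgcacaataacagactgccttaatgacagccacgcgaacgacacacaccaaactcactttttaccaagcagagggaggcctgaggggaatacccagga

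Jag1, which encodes the Jagged ligand whose human counterpart is mutated in Alagille syndrome, lies at chr2:137081451-137116520. It was higher in labelled KO on day 1 alone, at 5.95, 5.48 and 5.46 CPM against 3.70, 3.73 and 3.93 CPM in WT. The groups were clear of each other, at 1.49-fold (log2 fold change 0.57, SE 0.162, adjusted p = 0.00651, edgeR quasi-likelihood test, Benjamini-Hochberg). The call was lost on log2(TPM + 1), a scale that flattens low genes (0.31, adjusted p = 0.0585). On days 0, 3 and 6 the differences of 0.33, -0.12 and -0.03 did not pass.

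Jag2, at chr12:112907803-112929812, was the most abundant of these ligands and differed least between genotypes. Its WT and labelled KO libraries held 136 to 154 and 155 to 166 CPM on day 0, 102.6 to 105.5 and 81.2 to 110.3 CPM on day 1, 84.9 to 89.6 and 84.8 to 89.2 CPM on day 3, and 59.6 to 69.2 and 61.0 to 68.4 CPM on day 6. The differences were 0.14, -0.07, 0.00 and 0.00 with standard errors of 0.0882 to 0.0981. On day 6 an interval of 2 standard errors either side ran from -0.18 to 0.18.

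Jag2 took 96.0% of the summed TPM of the 3 ligands in WT on day 0 and 96.1% in labelled KO. By day 6 its share was 69.4% in WT and 61.8% in labelled KO, while that of Dll1 went from 0.764% to 21.0% in WT and from 0.164% to 29.9% in labelled KO, as group means.

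Heyl had the largest genotype differences among the repressors. It encodes a Hes-related repressor of the Hey family, which is expressed in muscle and vascular smooth muscle, and lies at chr4:123233556-123249870. On day 0 it had 13 and 10 counts (0.572 and 0.463 CPM) in WT and 56, 31 and 49 counts (2.54, 1.45 and 2.27 CPM) in labelled KO. On day 1 it was at 7.77, 4.50 and 8.12 CPM in WT and at 28.8, 18.5 and 25.7 CPM in labelled KO. The lowest labelled KO library was above the highest WT library on both days. On day 3 WT held 12.9, 11.4 and 8.68 CPM and labelled KO 50.5, 48.9 and 41.5 CPM, the highest level of any group. On day 6 WT held 8.21, 9.98 and 10.2 CPM and labelled KO 25.3, 23.1 and 24.5 CPM. The groups stayed separate throughout, at 4-, 3.58-, 4.27- and 2.56-fold (log2 fold change 2.00, 1.84, 2.09 and 1.36, with SE 0.426, 0.189, 0.181 and 0.183). Adjusted p was 0.00162, 6.31e-08, 2.61e-09 and 2.05e-06 on days 0, 1, 3 and 6 (edgeR quasi-likelihood test, Benjamini-Hochberg). The day 0 call rests on few counts in WT and was lost on log2(TPM + 1) (0.52, adjusted p = 0.066).

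Hey1, a repressor of the same family at chr3:8663359-8667038, was also higher in labelled KO on each day. WT held 7.57 and 7.04 CPM on day 0 and labelled KO 20.8, 19.7 and 18.8 CPM. On day 1 WT held 8.03, 8.57 and 10.4 CPM and labelled KO 13.8, 12.3 and 13 CPM. The gap was smaller on day 1 than on day 0. On day 3 WT held 13.4, 13.3 and 15 CPM and labelled KO 27.7, 29.3 and 28.6 CPM, and on day 6 WT held 13.6, 12.9 and 12.5 CPM and labelled KO 19.1, 19.4 and 20.8 CPM. No pair of groups overlapped. The log2 fold changes were 1.44 (SE 0.112), 0.53 (SE 0.0965), 1.04 (SE 0.0909) and 0.61 (SE 0.0921), with adjusted p = 1.49e-09, 0.000116, 3.33e-09 and 9.97e-06 (edgeR quasi-likelihood test, Benjamini-Hochberg). No scaling, filter or tool tried, and no single library left out, ended a Hey1 call between genotypes.

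Hes6, at chr1:91411483-91414038 on the minus strand, changed sides between day 1 and day 6. On day 1 WT held 52.0, 46.7 and 53.5 CPM and labelled KO 42.4, 33.2 and 40.0 CPM. On day 6 WT held 54.5, 57.8 and 46.7 CPM and labelled KO 70.7, 70.0 and 78.7 CPM. The groups were separate on both days, with labelled KO lower on day 1 and higher on day 6. The differences were -0.40 (SE 0.0994, adjusted p = 0.00245) and 0.47 (SE 0.0977, adjusted p = 0.000459, both from the edgeR quasi-likelihood test, Benjamini-Hochberg). On day 3 the groups overlapped (51.0 to 55.8 CPM in WT, 49.9 to 62.7 CPM in labelled KO), at 0.07. The day 0 difference of -0.28 (adjusted p = 0.103) passed with library size alone, both TPM fits and a fit on those 5 libraries, at -0.28 to -0.34. The myotube marker sum was higher in labelled KO on all 4 days, as given above, and its part in the differences of Hes6, Dll1 and the other members was not tested. In bulk RNA, fewer cells of a type and less RNA per cell cannot be told apart.

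Both RefSeq windows of Hes6 hold the E-box, and they are shown as those of the repressor among the 3 genes with a match. The first, on the minus strand from chr1:91413223-91413472, lies inside the gene, before a downstream start and outside its exons, and has the E-box 150 to 145 bases before it. The second, from chr1:91414039-91414288, lies upstream of the gene with the E-box 171 to 166 bases before the start. Capitals mark the E-box.
Hes6 window 1: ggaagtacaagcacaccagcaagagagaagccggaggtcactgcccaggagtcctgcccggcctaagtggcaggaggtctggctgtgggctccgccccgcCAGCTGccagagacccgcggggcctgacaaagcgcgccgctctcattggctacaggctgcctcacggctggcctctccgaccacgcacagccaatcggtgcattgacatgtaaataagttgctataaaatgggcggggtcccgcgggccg
Hes6 window 2: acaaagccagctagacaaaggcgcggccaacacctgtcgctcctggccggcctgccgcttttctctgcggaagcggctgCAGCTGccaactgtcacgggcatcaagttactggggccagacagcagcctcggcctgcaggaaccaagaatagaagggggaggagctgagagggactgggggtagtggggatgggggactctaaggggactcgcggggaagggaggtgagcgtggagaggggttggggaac

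Hes1, the best known of these repressors, at chr16:30065357-30067796, did not pass the genotype test on any day. WT libraries ran from 48.5 to 51.9, 54.2 to 58.7, 65.5 to 71.6 and 50.9 to 59.8 CPM on days 0, 1, 3 and 6, and labelled KO libraries from 52.6 to 57.9, 43.4 to 58.3, 71.4 to 72.6 and 46.2 to 53.3 CPM. The groups overlapped on days 1, 3 and 6. The differences were 0.12, -0.07, 0.09 and -0.15 with standard errors of 0.0916 to 0.104, and the day 3 value turned to -0.06 on log2(TPM + 1). The day 6 difference passed with library size alone (-0.21, adjusted p = 0.0407) on log2(TPM + 1) (-0.27, adjusted p = 0.00312) and without labelled KO day 1 replicate 2 (-0.17, adjusted p = 0.0361). As shares of the summed TPM of the 4 repressors on day 3, Heyl held 2.33% in WT and 8.31% in labelled KO, and Hes1 49.7% and 44.3%.

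Over time, WT cells gained receptor mRNA within 1 day of serum withdrawal. Of the 10 members, 9 had changed by day 1 (7 rose), 9 by day 3 (8 rose) and 8 by day 6 (7 rose), against 54.7%, 58.2% and 63.6% of all genes tested (27.1% higher and 27.6% lower on day 1, 29.2% and 29% on day 3, 32.6% and 31.1% on day 6). The median member change was 0.57, 0.80 and 0.80 on the log2 scale, against 0.02, 0.02 and 0.05 over all genes. With log2(TPM + 1) the median of all genes on day 3 was 0.13, a shift to set beside small changes. The share of called genes that rose in WT was 49.6%, 50.1% and 51.2% on days 1, 3 and 6, but 60.6%, 63.8% and 63.5% on log2(TPM + 1). In labelled KO 8, 8 and 7 members differed from day 0 on days 1, 3 and 6 (5, 7 and 6 higher), against 52.3%, 57.6% and 70% of all genes. Of all genes, 27.2%, 30.4% and 36.6% rose there and 25.2%, 27.2% and 33.5% fell. The share of called genes that rose in labelled KO was 51.9%, 52.7% and 52.2%, but 65.2%, 60.3% and 58.9% on log2(TPM + 1). All comparisons within a genotype use the same day 0 libraries.

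Dll1 and Heyl rose most. Dll1 rose by 4.43 (SE 0.258) in WT and 5.57 (SE 0.295) in labelled KO from day 0 to day 1, and the change since day 0 was 4.68 and 7.07 on day 3 and 4.09 and 6.78 on day 6. Heyl rose by 3.70 (SE 0.36) in WT and 3.54 (SE 0.223) in labelled KO by day 1, 4.39 and 4.49 by day 3, and 4.18 and 3.54 by day 6. All of these changes had an adjusted p of 8.6e-09 or smaller (edgeR quasi-likelihood test, Benjamini-Hochberg). They start from few counts on day 0, which limits how well their size is known. Dll1 had 4, 5 and 6 counts in labelled KO and 17 and 25 in WT. Heyl had 56, 31 and 49 counts in labelled KO and 13 and 10 in WT. The Heyl change did not pass the interaction test, at -0.16, 0.09 and -0.64 with standard errors of 0.475 to 0.575. Its day 1 and day 3 values became 0.97 and 1.22 (adjusted p = 0.0315 and 0.00215) on log2(TPM + 1), where the low day 0 levels weigh less.

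**Figure D4:**
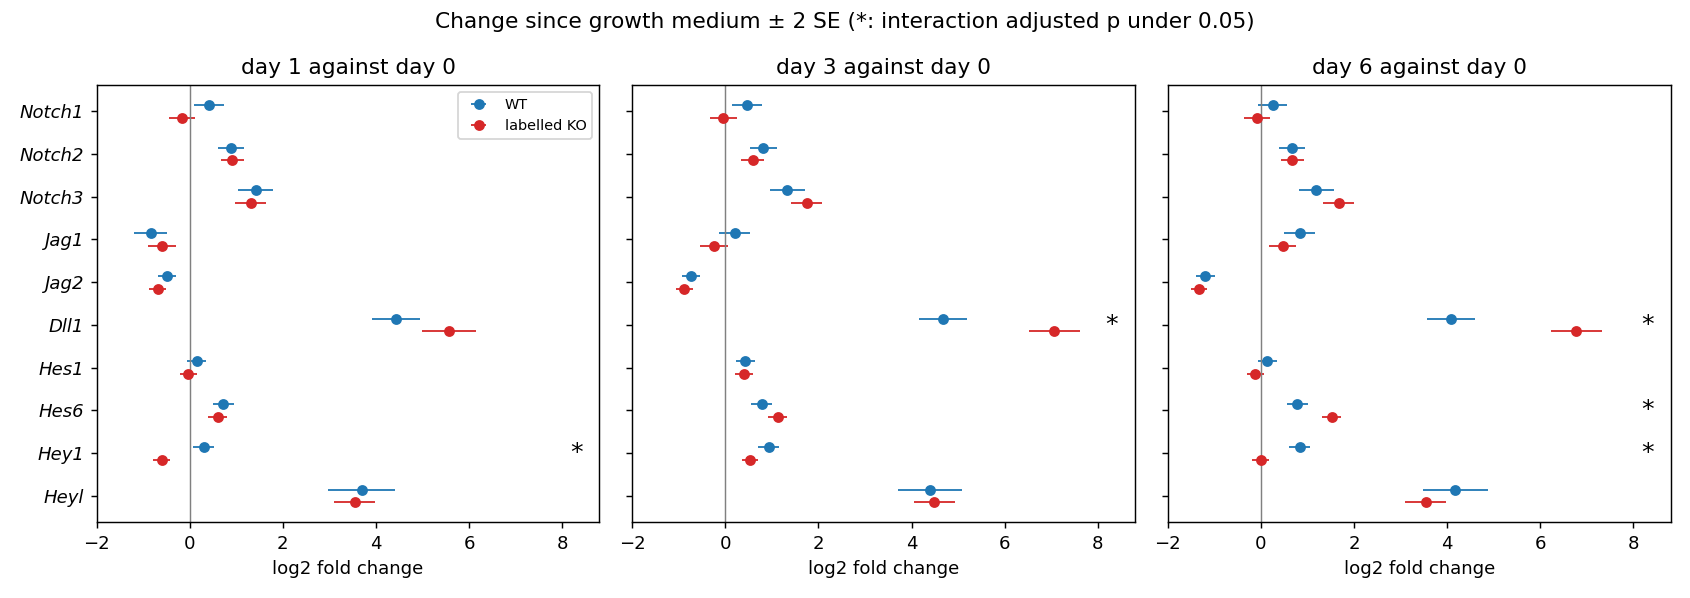
Change since day 0 of each member within WT and within labelled KO (log2 fold change on a common horizontal axis, 1 panel for each of days 1, 3 and 6, bars of 2 standard errors either side, asterisks where the interaction passed at an adjusted p under 0.05). Dll1 and Heyl lie far to the right in both genotypes, Jag2 lies left of 0 in both, and the Hey1 points part between genotypes on day 1.

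Notch3 rose by 1.42, 1.33 and 1.19 in WT on days 1, 3 and 6 and by 1.31, 1.75 and 1.67 in labelled KO, and Notch2 by 0.89, 0.82 and 0.67 and by 0.91, 0.59 and 0.67, all past the threshold. The largest adjusted p among these changes was 0.000266 (Notch2 in labelled KO on day 3). Neither receptor's change passed the interaction test between genotypes on any day. Notch1 rose by 0.42 and 0.47 in WT on days 1 and 3 (adjusted p = 0.031 and 0.0153). Both calls were lost without WT day 0 replicate 2, and that of day 1 also without WT day 1 replicate 3. On day 6 Notch1 was at 0.25 and passed only without WT day 6 replicate 2 (0.38, adjusted p = 0.0486). It passed on no day in labelled KO (-0.17, -0.04 and -0.09).

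Jag2 fell by 0.48, 0.73 and 1.19 in WT and by 0.69, 0.88 and 1.33 in labelled KO on days 1, 3 and 6, the only member of the 10 that fell at each time in both genotypes. Jag1 fell by 0.84 in WT and 0.60 in labelled KO on day 1 (adjusted p = 0.000281 and 0.00186, the latter lost on log2(TPM + 1) at -0.31 and adjusted p = 0.0504) and was higher than on day 0 by 0.83 and 0.47 on day 6 (adjusted p = 0.000149 and 0.0063). On day 3 it did not pass in either, at 0.20 and -0.25, though the labelled KO value passed without labelled KO day 3 replicate 1 (-0.45, adjusted p = 0.0161).

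Among the repressors, Hes6 rose by 0.72, 0.78 and 0.78 in WT and by 0.60, 1.13 and 1.52 in labelled KO. In WT it was level after day 1, whereas in labelled KO it rose again at each step (0.53 from day 1 to day 3 and 0.40 from day 3 to day 6, adjusted p = 0.000297 and 0.00214, edgeR quasi-likelihood test, Benjamini-Hochberg). The day 6 change was larger in labelled KO by 0.75 (SE 0.15, adjusted p = 0.00129). Hey1 rose in WT by 0.30, 0.93 and 0.83, while in labelled KO it fell by 0.60 on day 1, was 0.53 above day 0 on day 3, and was back at its day 0 level on day 6 (0.00, SE 0.0902). The Hey1 change was smaller in labelled KO by 0.90 on the log2 scale on day 1 (difference -0.90, SE 0.147, adjusted p = 0.00116) and by 0.83 on day 6 (difference -0.83, SE 0.144, adjusted p = 0.000276). The WT day 1 rise of Hey1 was small (adjusted p = 0.0295) and was lost without WT day 0 replicate 2 or WT day 1 replicate 3 (0.25 and 0.18), without a filter on low counts (0.29, adjusted p = 0.108) and in a fit on only the groups compared (0.30, adjusted p = 0.0741). Hes1 passed on day 3, at 0.43 in WT and 0.40 in labelled KO. On days 1 and 6 it missed the threshold in both, but passed in WT on log2(TPM + 1) (0.28 and 0.32, adjusted p = 0.0042 and 0.00124) and without labelled KO day 1 replicate 2 (0.20 and 0.19).

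Interaction tests thus called 1 member on day 1 (Hey1), 1 on day 3 (Dll1) and 3 on day 6 (Dll1, Hes6 and Hey1), against 3.95%, 10.7% and 13% of all genes. The day 3 count was 0 without WT day 0 replicate 2, and 2 without any 1 of 7 other libraries (labelled KO day 1 replicate 2, WT day 1 replicate 1 or 2, WT day 3 replicate 2, labelled KO day 6 replicate 1, WT day 6 replicate 1 or 3). From day 1 to day 3, 5 members changed in WT and 6 in labelled KO, against 19.7% and 26.7% of all genes. The labelled KO count includes Notch3 at 0.43 (adjusted p = 0.0493, edgeR quasi-likelihood test, Benjamini-Hochberg). That call was lost under 5 other settings and when any 1 of 19 libraries was left out. The WT count was 2 without WT day 1 replicate 2 or WT day 3 replicate 1, and 3 without WT day 1 replicate 1 or WT day 3 replicate 2 or 3. From day 3 to day 6 it was 4 in WT and 6 in labelled KO, against 9.79% and 41.3%, and the WT count was 2 without WT day 3 replicate 1 or WT day 6 replicate 1. In labelled KO this last step held falls of Heyl by 0.95, Hey1 by 0.53, Hes1 by 0.53 and Jag2 by 0.45, and rises of Jag1 by 0.71 and Hes6 by 0.40. In WT it held falls of Dll1 by 0.59 (lost without WT day 3 replicate 1 or day 6 replicate 1), Jag2 by 0.45 and Hes1 by 0.29, and a rise of Jag1 by 0.63. The Hes1 fall (adjusted p = 0.0478) was lost when any 1 of 17 libraries was left out.

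Over the 8 group means of log2 CPM, which share libraries, scaling and time points, Dll1 and Hes6 had a Pearson r of 0.92, Notch2 and Notch3 of 0.90, Hes6 and Jag2 of -0.91 and Hey1 and Notch1 of 0.84. The tested gene with the pattern most like each member, by the same measure over the 8 groups, was Hoxb3 for Notch1 (r = 0.9522), Wls for Notch2 (r = 0.9904), Cnp for Notch3 (r = 0.9949), Ivns1abp for Jag1 (r = 0.9657), Ppil3 for Jag2 (r = 0.995), Acp2 for Dll1 (r = 0.9923), Tapbp for Hes6 (r = 0.9954), Emc10 for Hey1 (r = 0.9724) and Sema3c for Heyl (r = 0.9916). For Hes1 it was AK182695 (r = 0.9363). These are descriptions, the best of 14187 genes over 8 points.

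Of 53 other genes of the pathway listed by role, 46 could be tested, and 10 differed between genotypes on day 0 (5 higher, 5 lower), 18 on day 1 (8 and 10), 19 on day 3 (10 and 9) and 16 on day 6 (7 and 9), close to the background given above on days 0, 1 and 3 and below it on day 6. The day 0 count was 4, 5 and 6 without WT day 0 replicate 1, WT day 0 replicate 2 and labelled KO day 0 replicate 2. Their median difference was -0.01, -0.04, -0.06 and -0.01. The other 7 genes (the ligands Dll3, Dll4 and Dlk1, the regulator Dtx1, and Hes2, Hes3 and Hes5) had at most 3 counts in any library. The fourth receptor, Notch4, was low, at 3.19 ± 0.472 CPM in WT and 1.89 ± 0.189 CPM in labelled KO on day 3 (SD, n = 3 each, log2 fold change -0.75, adjusted p = 0.00611, edgeR quasi-likelihood test, Benjamini-Hochberg).

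Genes named from these lists are mostly given on the day of their largest called difference, which need not be the only day. Among genes that act in the cell sending the signal, Neurl1a, a ubiquitin ligase for ligands, was at 253 ± 14.3 CPM in labelled KO and 128.5 ± 9.27 CPM in WT on day 6 (SD, n = 3 each), a difference of 0.98 (SE 0.125). The mean of Neurl1a was also higher in labelled KO on days 0, 1 and 3. Mib2, another ligand ubiquitin ligase, was lower on day 1 by 0.68 (difference -0.68, SE 0.0943), and Neurl1b on day 0 (-0.50), a call lost with RLE scaling (adjusted p = 0.0513) and when any 1 of 17 libraries was left out. The non-canonical ligand Dlk2 was at 2.45 ± 0.563 CPM in labelled KO and 0.894 ± 0.219 CPM in WT on day 6 (difference 1.45, SE 0.277). Among the fringe and other glycosyltransferases that modify the receptors, Lfng was lower on day 6 (-0.62). Its mean was higher in labelled KO on days 0, 1 and 3 (33.7 against 29.7, 27.4 against 21.4 and 21.1 against 18.3 CPM), with overlapping groups on days 1 and 3. Rfng was lower on day 1 (-0.47, at -0.28 and still past the threshold without labelled KO day 1 replicate 2, and lost in a fit on only the groups compared at -0.50 and adjusted p = 0.0686), and Poglut1 higher on day 3 (0.33, lost on log2(TPM + 1)).

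Of the 10 genes listed for cutting the receptor, which are proteases and the non-catalytic subunits of gamma-secretase, 1 was higher and 1 lower on day 0, 1 and 3 on day 1, 1 and 3 on day 3, and 2 and 3 on day 6, near the 17.5%, 42.2%, 43.2% and 42.9% of all genes called in either direction on those days. Psen2, a catalytic subunit of gamma-secretase, was at 12.5 ± 0.516 CPM in WT and 6.49 ± 1.09 CPM in labelled KO on day 3 (SD, n = 3 each, difference -0.94, SE 0.126). Aph1b, another subunit of that complex, was lower on day 6 (-0.69), and Adam10, the sheddase, higher on day 1 (0.51). The means of Psen2 and Aph1b were lower, and that of Adam10 higher, in labelled KO on days 0, 1, 3 and 6. Of the 7 genes of the nuclear complex, 1 was lower on day 0, 1 higher on day 1, 1 lower on day 3 and 2 lower on day 6. The shares of all genes are those given above. Among these calls, Rbpj was lower on day 3 (-0.32, adjusted p = 0.00353, edgeR quasi-likelihood test, Benjamini-Hochberg) and Snw1 on day 6 (-0.29). Maml2 was lower on day 0 (-0.48, lost on log2(TPM + 1) at adjusted p = 0.0589 and without WT day 0 replicate 1 or labelled KO day 0 replicate 3).

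Among 8 corepressors, Tle4 of the Groucho family had the largest difference of the listed genes that reached a mean of 5 CPM in a group. It was at 4.50 ± 0.590 CPM in labelled KO and 2.18 ± 0.272 CPM (n = 2) in WT on day 0, and at 7.38 ± 1.56 CPM and 1.00 ± 0.357 CPM on day 6 (SD, n = 3 unless given), which is 2.06- and 7.32-fold. Its adjusted p was 0.00253 and 2.27e-10 (edgeR quasi-likelihood test, Benjamini-Hochberg), and the change since day 0 was larger in labelled KO by 1.83 on day 6 (SE 0.324, adjusted p = 0.00033). Its relative Tle2 was lower on day 1 (-0.94), and Ctbp2 higher (0.41). Of the regulators of the receptor, Dtx4 was higher on day 0 (0.73), Numbl lower on day 3 (-0.64), and Dtx3 lower on day 1 (-0.59, at -0.41 without labelled KO day 1 replicate 2). Of the further targets, 3 of 6 could be tested and each was called on 1 day. They lay outside the naming rule for their low levels and were named after their values were seen. Hes7 was lower on day 1, at 0.368 ± 0.104 CPM in labelled KO against 0.935 ± 0.21 CPM in WT (SD, n = 3 each, difference -1.34, adjusted p = 0.0187), and Hey2 was lower on day 6, at 0.131 ± 0.0885 CPM against 0.513 ± 0.341 CPM (difference -1.93, adjusted p = 0.0197). Nrarp, a feedback inhibitor, was higher on day 3 at 4.22 ± 1.13 CPM in labelled KO against 2.13 ± 0.213 CPM in WT (SD, n = 3 each, difference 0.99, adjusted p = 0.00122).

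Some members share their place with another annotated gene: Notch1 with 0610009E02Rik and Mir6996, Notch2 with Gm40103, Notch3 with Gm38585 and Gm41568, Jag2 with Mir6941, Dll1 with an exon of A930024N18Rik, and Hey1 with LOC115489673. Whether counting used the strand is not given in the sources used here, so reads of such neighbours cannot be told apart from those of the member.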

How the data were processed

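The authors deposited 2 gene tables over all 23 libraries. The estimated counts (expected counts per gene symbol) were made by the authors from the reads and deposited as whole numbers, and Bowtie2, RSEM and the mm10 build are named in the submitters' processing notes without roles or versions. The TPM values were deposited by the authors for the same genes. Annotation and strand setting are not given in the sources used here. The counts were tested with the quasi-likelihood test of edgeR 4.0.16 (R 4.3.3), with TMM scaling, 14187 genes kept by filterByExpr (minimum count 10, minimum total 15), 1 group-means model over all libraries, 17 contrasts and Benjamini-Hochberg adjustment over all genes within each contrast at 0.05. An interaction is the change since day 0 in labelled KO minus that in WT. Rounding changed no count.

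Alternatives were RLE scaling, library size alone, no filter, DESeq2 1.42.0, limma 3.58.1 on log2(TPM + 1) and log2(TPM + 0.1), only the groups compared, a replicate block and omission of each library in turn. Total counts of 22197606 to 23684077 per library bound the precision, and the most abundant gene held at most 2.32% of a library. Chromosome positions and promoter windows come from RefSeq for GRCm38.p6, matched by symbol. Members, pathway lists and markers were chosen with earlier results of these data known. Named pathway genes are up to 3 per list with the largest absolute fold change past the threshold in any genotype contrast, among genes with a group mean of at least 5 CPM. The most similar gene is the one with the highest Pearson r over the 8 group means.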

Additional observations from a re-analysis of the deposited data

Results flagged for a closer look

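For 3 members the change since day 0 differed between genotypes by the interaction test, as labelled KO minus WT on the log2 scale. Hey1 gave -0.90 on day 1 and -0.83 on day 6, Dll1 gave 2.40 on day 3 and 2.69 on day 6, and Hes6 gave 0.75 on day 6. The Dll1 values rest on day 0 libraries with at most 25 counts.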

How the results depend on the processing

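The labels give the same replicate numbers in each group. Between genotypes on the same day, same-numbered libraries did not deviate together (r of -0.24 to 0.053 over genes). For libraries of different number r was -0.201 to 0.258, both ends on day 6. The numbers were therefore not taken to pair the libraries, and replicates were not compared from day to day within a genotype. With the replicate block the members called remained 5, 6, 5 and 6 between genotypes on days 0, 1, 3 and 6. The block ended the calls of Hey1 in WT from day 0 to day 1 (0.28, adjusted p = 0.0506) and of Hes1 in WT from day 3 to day 6 (-0.29, adjusted p = 0.0674), by edgeR's quasi-likelihood test, and changed no other call of a member.

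Of the member values, 969 under other settings and 2847 with 1 library left out kept their direction and side of the threshold, 27 and 80 lost the threshold, 16 and 8 gained it, and 20 and 32 changed sign; the cause was not tested. Fits on only the groups compared called 17 and 11 other pathway genes on days 0 and 1 between genotypes, 3607 genes in all on day 1, 4642 and 1659 from day 1 to day 3 in WT and labelled KO, and 239 and 2613 in the day 1 and day 3 interactions. The members called in the day 1 interaction were 2 without a filter and on log2(TPM + 1). In the day 3 interaction they were 2 with RLE scaling, no filter, DESeq2 and log2(TPM + 0.1), and 3 on the groups compared.

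Signs changed for small values: between genotypes, Hes1 (-0.06) and Hes6 (-0.08) on day 3 in both TPM fits, and Jag2 on day 6 with library size (-0.07), both TPM fits (-0.12) and the groups compared (-0.01). In labelled KO since day 0 they changed for Hes1 on day 1 with library size (0.05) and both TPM fits (0.11), Notch1 on day 3 with these 3 settings (0.02) and on day 6 in both TPM fits (0.01), and Hey1 on day 6 without a filter (-0.02). The Heyl interaction changed sign on day 1 with log2(TPM + 1) (0.97) and log2(TPM + 0.1) (0.32) and on day 6 with log2(TPM + 1) (0.53), scales on which the low WT level of day 0 weighs less.

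With 1 library left out, the genes called between genotypes on day 0 ranged from 1265 to 3459 and the other pathway genes from 4 to 13. Genes called from day 3 to day 6 in WT ranged from 762 to 2271, and in the interactions from 148 to 919 on day 1, 829 to 2302 on day 3 and 1184 to 2844 on day 6. Members called ranged from 2 to 5 (WT, day 1 to day 3), 2 to 4 (WT, day 3 to day 6) and 0 to 2 (day 3 interaction). Values that changed sign ranged from -0.15 to 0.04, -0.04 to 0.02 and -0.08 to 0.03 for Jag2 on days 1, 3 and 6, -0.31 to 0.07 and -0.11 to 0.03 for Jag1 on days 3 and 6, -0.14 to 0.04 for Hes1 on day 1 and -0.03 to 0.14 for Hes6 on day 3 between genotypes. In labelled KO since day 0 they ranged from -0.10 to 0.10 (Hes1, day 1), -0.16 to 0.10 (Notch1, day 3) and -0.04 to 0.04 (Hey1, day 6), and the Heyl day 3 interaction from -0.12 to 0.24. Counts of 4 to 25 for Dll1 and 10 to 13 in WT for Heyl limit what day 0 can show.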
